A study of Rattus norvegicus with 18 samples.

Results

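The change of gene expression from normal tongue mucosa to squamous cell carcinoma (SCC) was compared between the epithelia and the submucosal fibroblasts of rats that drank 4-nitroquinoline oxide (4NQO), a chemical carcinogen. The members were the 12 of 18 arrays titled as normal or carcinoma samples, with 3 arrays in each of 4 groups: normal epithelia (N-E), SCC epithelia (C-E), normal fibroblasts (N-fb) and SCC fibroblasts (C-fb). The other 6 arrays, from dysplasia, were not in the comparison. All animals were male Sprague Dawley rats whose age the sources do not state. Carcinoma rats drank water with 0.002% 4NQO and were taken between week 14 and week 22, once lesions were visible, and normal rats drank distilled water. The epithelia were the sheet lifted off after dispase digestion, and the fibroblasts were the cells of the underlying tissue that stuck to a culture dish shortly after collagenase digestion, so they were not expanded in culture. Per the study, each sample pooled tissue of 3 rats, which means that p-values here rest on the variation among pools rather than single animals. Having 3 arrays a group limits the precision. Whether an epithelial and a fibroblast pool held the same rats is not stated.

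The squamous epithelium of the tongue is a stack of keratinocytes that divide at the base, produce keratins and cornified envelope proteins as they move up, and are joined by desmosomes and gap junctions. The connective tissue below it holds fibroblasts, which lay down collagen, together with vessels and resident immune cells. Interleukin-1 (IL-1) is an alarm cytokine of both layers: its ligands IL-1 alpha and IL-1 beta signal through a receptor with an accessory protein, a receptor antagonist and a decoy receptor hold it back, and the signal reaches NF-kB, which switches on chemokines that recruit neutrophils and monocytes.

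Each value below is the log2 of the deposited array signal, called the level. The own change of a layer is its mean level in SCC minus its mean level in normal tissue, and the layer difference is the own change of the epithelia minus the own change of the fibroblasts, so a value above 0 means a larger rise, or a smaller fall, in epithelia. Errors are standard errors of the limma fit over the 12 arrays, and a difference was called at an adjusted p under 0.05. Levels are not compared between genes, because probes differ in brightness.

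The labels of the layers were first set against markers. The 16 epithelial markers, among them Krt5 and Krt14, had a mean level of 12.1 to 12.4 in the epithelia samples, but also of 11.25, 11.28 and 9.49 in the normal fibroblasts and 11.72, 11.56 and 10.82 in the SCC fibroblasts, so the fibroblast fraction carried strong epithelial signal. Krt14, the keratin of basal cells, averaged 13.43 in normal fibroblasts against 14.10 in normal epithelia. The 16 fibroblast markers averaged 6.33, 7.85 and 6.26 in the normal epithelia and 8.99, 11.02 and 7.17 in the SCC epithelia, against 12.60, 12.43 and 12.77 in normal and 11.68, 11.40 and 12.24 in SCC fibroblasts. Fibroblast signal in the epithelia was thus higher in SCC, most in the second SCC sample, while in the fibroblast fraction it was lower in SCC. The 17 macrophage and monocyte markers also stood higher in SCC epithelia, going from 6.14 to 6.19 in normal epithelia to 8.59, 9.59 and 7.24 in SCC epithelia, and stood at 11.49, 11.14 and 8.92 in normal and 9.91, 9.94 and 11.72 in SCC fibroblasts, where the third sample was the lowest of the normal ones and the highest of the SCC ones. The 8 neutrophil markers averaged 5.83, 6.11 and 5.79 in normal epithelia, 7.80, 8.39 and 7.28 in SCC epithelia, 7.15, 7.0 and 7.73 in normal fibroblasts and 10.07, 10.08 and 9.60 in SCC fibroblasts. Fewer cells of a type and less RNA per cell cannot be told apart in such bulk samples, and the part of these cell types in the layer differences below was not tested. Signs of RNA quality also moved: the 3′ minus 5′ signal of Gapdh averaged 0.05 in normal and 0.21 in SCC epithelia, but 0.33 in normal and 0.13 in SCC fibroblasts, and that of actin 1.78, 1.73, 1.74 and 1.20 in the same order. Their part was not tested either.

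**Figure D1:**
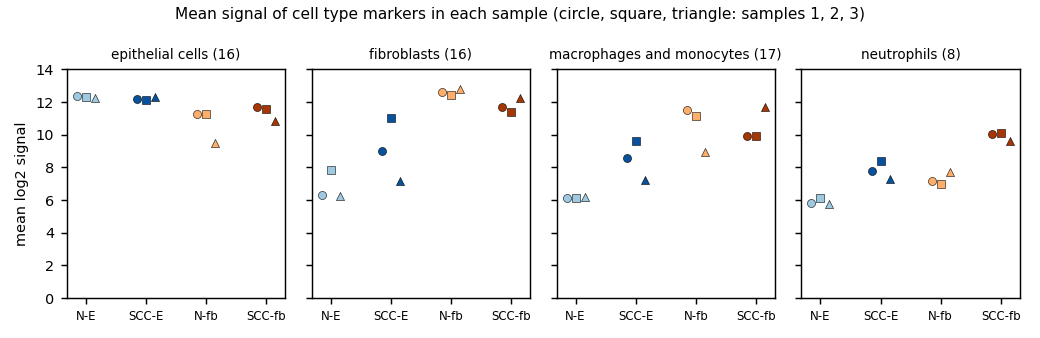
Mean log2 signal (vertical axis) in each of the 12 samples of 4 sets of cell type markers (epithelial, fibroblast, macrophage or monocyte, neutrophil), with the number of markers in each title; circle, square and triangle are samples 1, 2 and 3. The epithelial markers stand high in both layers, and the fibroblast markers reach 11.02 in the second SCC epithelia sample.

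Of 31042 probe sets, 3992 had a called layer difference (12.9%), 1579 of them above 0 (5.09%) and 2413 below 0 (7.77%). The split depended on how the arrays were scaled: with the spike-in controls set equal on every array, which measured 11.51 to 12.41 on the log2 scale in the normal fibroblast samples and averaged 11.05 to 11.34 in the SCC groups, the median layer difference of all probe sets moved by -0.63 and 93.7% of the called ones lay below 0, against 60.4% without that alignment. The own change was called for 7653 probe sets in epithelia (24.7%) and for 6661 in fibroblasts (21.5%). A probe set was placed as changed in epithelia only when the layer difference and the epithelial change were called and the fibroblasts moved by less than 1.5-fold, and the mirror rule was used for fibroblasts. By these rules 1813 probe sets changed in epithelia only (5.84%), 597 upwards and 1216 downwards, and 1349 changed in fibroblasts only (4.35%), 855 upwards and 494 downwards. Opposite ways, with both own changes called, were taken by 350 probe sets (1.13%), of which 120 were higher in SCC epithelia and lower in SCC fibroblasts and 230 the reverse. The number of calls moved with single arrays, to 1947 without the first SCC fibroblast sample and 6204 without the third, and 1755 were called with each array left out in turn. The classes overlap where a small change was also called, 121 called probe sets changed the same way to an unequal extent, and 567 fitted no class.

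**Figure D2:**
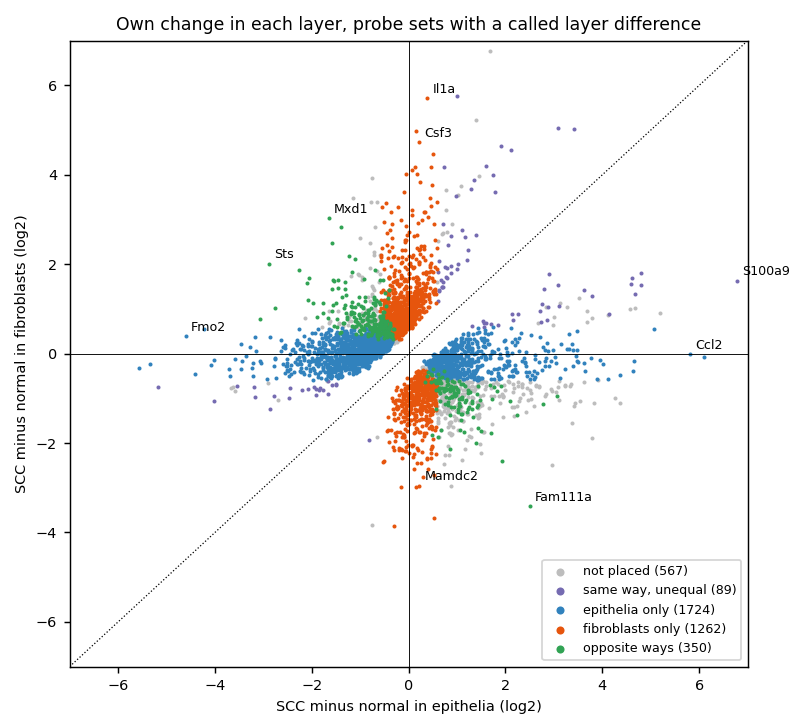
Own change from normal to SCC in epithelia (horizontal axis, log2) against that in fibroblasts (vertical axis, log2) for the 3992 probe sets with a called layer difference, each drawn in 1 colour for its class, with opposite ways first where classes overlap. The dotted line marks equal change; Ccl2 lies far right on the horizontal zero line and Il1a far up near the vertical zero line.

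The called layer differences mostly went with a smaller gap between the layers. The layer difference is itself the change of that gap, and the same normal levels enter both. The counts below for called probe sets and classes thus describe the calls and are no separate support. The gap between the mean levels of epithelia and fibroblasts was smaller in SCC than in normal tissue for 3585 of the 3992 called probe sets (89.8%), and for 23474 of all 31042 (75.6%). The median gap of the called probe sets went from 1.59 in normal tissue to 0.63 in SCC on the log2 scale, beside 0.61 and 0.37 for all probe sets. All 120 probe sets that were higher in SCC epithelia and lower in SCC fibroblasts had stood above the epithelia in normal fibroblasts, and 118 of them ended with a smaller gap. Among the 1216 that fell in epithelia only, 1191 had stood higher in the epithelia of normal rats, whereas this held for 8 of the 597 that rose there only. With each array left out in turn, the share with a smaller gap lay between 73.0% and 76.1% for all probe sets. The epithelial and fibroblast marker levels given above drew together too, and their part in it was not tested.

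The IL-1 family divided between the layers, with Il1b rising more in epithelia, and Il1a and the inhibitors Il1rn and Il1r2 rising in fibroblasts. Of the 21 measured IL-1 and inflammasome genes, 1 was called above 0 and 6 below 0, with a median layer difference of -0.36 (-1.0 when aligned on the spike-ins). Beside this, 838 of all 14217 genes were called above 0 (5.89%) and 1248 below 0 (8.78%), with a median of -0.08 (-0.71 when aligned on the spike-ins). Il1b, the gene the study centred on, stood at 5.38, 5.73 and 5.35 in normal epithelia, 10.41, 10.61 and 9.25 in SCC epithelia, 12.38, 12.20 and 11.22 in normal fibroblasts and 13.59, 13.65 and 13.66 in SCC fibroblasts. In both layers every SCC sample lay above every normal sample, and the fibroblast fraction was the brighter layer at both stages. The own change of Il1b was 4.61 ± 0.36 in epithelia and 1.70 ± 0.36 in fibroblasts, a layer difference of 2.91 ± 0.50 (adjusted p = 0.00577).

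Il1a, which encodes the IL-1 alpha that keratinocytes store, showed the reverse. On the probe set with the larger difference, its levels were 6.32, 5.25 and 6.26 in normal epithelia, 6.97, 5.73 and 6.28 in SCC epithelia, 5.41, 5.49 and 4.84 in normal fibroblasts and 10.65, 11.02 and 11.20 in SCC fibroblasts. The epithelial samples overlapped, while the 3 SCC fibroblast samples stood far above all others. Il1a rose 52.4-fold in fibroblasts, and its layer difference was -5.33 ± 0.50 (adjusted p = 0.000342), with -4.07 ± 0.49 on a second probe set. Il1rn, the gene of the secreted receptor antagonist, measured 8.17, 8.39 and 8.41 in normal epithelia, 8.74, 8.01 and 8.66 in SCC epithelia, 6.66, 6.59 and 5.82 in normal fibroblasts and 11.74, 11.86 and 10.42 in SCC fibroblasts. Here too the epithelial groups overlapped and the fibroblast groups did not, and the layer difference was -4.84 ± 0.52 (adjusted p = 0.000636). The decoy receptor Il1r2 had a layer difference of -4.16 ± 0.51 (adjusted p = 0.00111), from a rise of 3.39 in fibroblasts beside -0.77 in epithelia (adjusted p = 0.139). Il1rap, the accessory protein of the signalling receptor, rose by 2.10 ± 0.13 in fibroblasts against 0.34 ± 0.13 in epithelia, a layer difference of -1.77 ± 0.18 (adjusted p = 0.00058), beside -0.78 (adjusted p = 0.162) on a second probe set. Irak2, a kinase adaptor of the same receptor, fell in epithelia by 0.58 and rose in fibroblasts by 1.64. Pycard, the adaptor of the inflammasome, fell by 2.18 in epithelia only, and its call was lost without the third normal epithelia, the first SCC fibroblast or the second SCC fibroblast sample.

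The promoter of Il1rn is shown because it was the only 1 of 17 IL-1 family genes with a sequence here that held the NF-kB motif searched, the letters GGG, any 2 bases and then TTTCC on either strand, within the 250 bases before its start. Sequences are from RefSeq on the rat build GRCr8, written 5′ to 3′ in the direction of the gene, and the capitals mark the motif. The Il1rn window lies on the plus strand at chr3:27520072-27520321, with its match at -129 to -120 from the start.
Il1rn: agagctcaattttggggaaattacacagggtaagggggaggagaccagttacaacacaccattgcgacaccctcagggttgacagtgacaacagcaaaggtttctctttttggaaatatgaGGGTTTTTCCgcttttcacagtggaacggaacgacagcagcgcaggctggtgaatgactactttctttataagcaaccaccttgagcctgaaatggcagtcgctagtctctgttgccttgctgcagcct
The motif occurred in 435 of 33469 windows of this length (1.3%), and in 5 of the 27 chemokine and receptor genes with a window (18.5%). A match is a description of letters, not a measured site.

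Single chemokine genes also differed between the layers, with Ccl2, Cxcl1 and Cxcl2 rising more in epithelia, and Cxcl3 rising more in fibroblasts. Of 34 measured chemokines and receptors, 4 were called above 0 (Cxcl1, Cxcl2, Cxcl10 and Ccl2) and 3 below 0 (Cxcl3, Ppbp and Cxcr2). This share of 20.6% lies near the 14.7% of all genes, so the calls describe single genes rather than the list. All 7 were also called with each array left out. The median layer difference of the list was 0.55 but -0.09 when aligned on the spike-ins, and 0.05 without the second SCC epithelia sample. Ccl2, which attracts monocytes, stood at 4.59, 4.99 and 5.12 in normal epithelia, 11.21, 10.78 and 10.14 in SCC epithelia, 12.81, 12.75 and 13.46 in normal fibroblasts and 12.86, 12.81 and 13.32 in SCC fibroblasts. The SCC epithelia were far above the normal epithelia, and the fibroblast groups overlapped at a high level. The rise in epithelia was 5.81 ± 0.28 and the change in fibroblasts -0.01 ± 0.28, which gave a layer difference of 5.82 ± 0.40 (adjusted p = 5.78e-05). Dysplasia epithelia, outside the comparison, averaged 9.05.

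Cxcl1, a ligand of the neutrophil receptor CXCR2, measured 6.45, 6.51 and 5.87 in normal epithelia, 10.28, 9.88 and 9.05 in SCC epithelia, 13.59, 13.53 and 13.81 in normal fibroblasts and 13.57, 13.51 and 13.71 in SCC fibroblasts. As for Ccl2, the epithelial groups were apart and the fibroblast groups overlapped, with a layer difference of 3.50 ± 0.39 (adjusted p = 0.000656). Whether a limit at the bright end of the arrays held down fibroblast changes of Ccl2, Cxcl1, Cxcl2 or Il1b was not tested. Cxcl2, a close relative, rose by 5.20 ± 0.40 in epithelia beside 0.91 ± 0.40 in fibroblasts (adjusted p = 0.127), a layer difference of 4.29 ± 0.57 (adjusted p = 0.00154). Cxcl10, an interferon-induced attractant of T cells, had a layer difference of 3.69 ± 0.74 (adjusted p = 0.0107), which fell to 2.61 with an adjusted p of 0.0682 when signals under 32 were raised to 32, since its normal epithelia levels were 3.82 to 4.02.

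Cxcl3, a further CXCR2 ligand, ran the other way from Cxcl1 and Cxcl2. Its levels were 7.59, 7.47 and 7.68 in normal epithelia, 8.20, 7.66 and 7.87 in SCC epithelia, 8.35, 8.45 and 8.37 in normal fibroblasts and 11.19, 11.40 and 12.05 in SCC fibroblasts. Only the SCC fibroblasts stood clear, by a rise of 3.16 ± 0.21, and the layer difference was -2.83 ± 0.29 (adjusted p = 0.000564). The 4 other probe sets of Cxcl3 gave layer differences of -2.44, -2.74, -2.05 and -1.04, all called, although on the first and second of these the epithelial change was 2.11 and 1.91. Ppbp, the precursor of a platelet chemokine, rose by 1.73 in epithelia and 4.00 in fibroblasts. Cxcr2, the receptor on neutrophils, stood at 7.75, 7.05 and 8.0 in normal epithelia, 8.16, 7.22 and 7.62 in SCC epithelia, 5.36, 5.23 and 5.50 in normal fibroblasts and 8.78, 8.89 and 7.74 in SCC fibroblasts. The epithelia overlapped and the fibroblast groups did not, a layer difference of -3.04 ± 0.48 (adjusted p = 0.0039).

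Csf3, the growth factor of granulocytes, also rose in the fibroblast fraction only. Its levels were 5.50, 5.56 and 5.44 in normal epithelia, 6.29, 5.46 and 5.35 in SCC epithelia, 4.13, 4.30 and 6.94 in normal fibroblasts and 9.39, 9.58 and 10.59 in SCC fibroblasts. SCC fibroblasts lay above all other samples, and the layer difference was -4.53 ± 0.89 (adjusted p = 0.0098). S100a9, the calprotectin subunit of neutrophils that keratinocytes also make in inflammation, rose in both layers, by 6.77 ± 0.31 in epithelia and 1.63 ± 0.31 in fibroblasts. Its layer difference of 5.14 ± 0.43 (adjusted p = 0.000243) was opposite in sign to those of the neutrophil markers Csf3r, Cxcr2, Mmp8 and Camp, which were called below 0. These 5 were the called ones of 8 neutrophil markers (62.5%), beside 14.7% of all genes. The call of Csf3r held in 3 of the 12 fits with 1 array left out.

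The promoters of Cxcl1 and Cxcl2 are shown as those of the called chemokine genes that held the NF-kB motif, in capitals. Cxcl1 lies on the minus strand at chr14:17479322-17479571, with matches at -102 to -93, on the strand opposite to the gene, and at -84 to -75. Cxcl2, its neighbour, lies on the minus strand at chr14:17467256-17467505, with matches at -74 to -65 and -54 to -45.
Cxcl1: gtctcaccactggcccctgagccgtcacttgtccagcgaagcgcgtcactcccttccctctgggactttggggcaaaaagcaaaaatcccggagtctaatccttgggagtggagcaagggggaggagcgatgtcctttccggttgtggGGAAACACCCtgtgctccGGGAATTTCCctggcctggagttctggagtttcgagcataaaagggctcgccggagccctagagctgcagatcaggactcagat
Cxcl2: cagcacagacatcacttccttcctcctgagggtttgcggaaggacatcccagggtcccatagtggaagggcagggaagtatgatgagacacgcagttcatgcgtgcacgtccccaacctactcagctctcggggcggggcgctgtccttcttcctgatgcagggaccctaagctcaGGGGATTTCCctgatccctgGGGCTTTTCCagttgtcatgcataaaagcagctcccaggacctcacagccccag

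Among the other genes that rose in epithelia only, several were signalling or complement genes with high levels in the fibroblast fraction at both stages. Inhba, which encodes the activin A subunit, stood at 4.23, 4.41 and 4.57 in normal epithelia, 9.35, 9.73 and 8.10 in SCC epithelia, 11.16, 10.96 and 10.49 in normal fibroblasts and 10.41, 9.98 and 11.75 in SCC fibroblasts. The SCC epithelia were clear of the normal epithelia and the fibroblast groups overlapped, with a layer difference of 4.81 ± 0.66 (adjusted p = 0.00187). A second, brighter Inhba probe set gave 0.56 (adjusted p = 0.55), with an epithelial change of 0.90 (adjusted p = 0.134). By that probe set Inhba was not called, and it is the one that stands for Inhba in the gene lists. C1s, a protease of the classical complement pathway, had levels of 5.56, 7.77 and 5.44 in normal epithelia and 10.74, 11.97 and 9.17 in SCC epithelia, beside 12.40 to 13.41 in the fibroblast samples. Its second samples were the highest of each epithelial group, as they were for the fibroblast markers, and its layer difference was 4.85 ± 0.99 (adjusted p = 0.0115). Mecom, a zinc finger transcription factor, differed by 4.24 ± 0.57 (adjusted p = 0.00175), though a second probe set gave 0.60 (adjusted p = 0.219). Icam1, the adhesion molecule that leukocytes bind, rose by 2.02 ± 0.15 in epithelia and changed by -0.30 ± 0.15 in fibroblasts, a layer difference of 2.31 ± 0.21 (adjusted p = 0.000305).

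Interferon response and antigen presentation genes were called in the epithelial direction. Of 33 measured, 9 were called above 0 and none below (Irf1, Ifitm1, Ifitm3, Gbp2, Ifi27, Ifi44, Psmb8, Cd74 and RT1-Bb), 27.3% beside 5.89% of all genes called above 0. Of these, 6 were called with each array left out. The median was 0.98, or 0.35 when aligned on the spike-ins. Without the second SCC epithelia sample, 6 were called above 0 and 1 below, with a median of 0.69. With signals under 32 raised to 32, 6 were called above 0. The median own change of the list was 1.58 in epithelia and 0.27 in fibroblasts. Ifitm1, an interferon-induced membrane protein, rose by 4.14 in epithelia and by 0.88 in fibroblasts (layer difference 3.26, adjusted p = 0.000656). Psmb8, an immunoproteasome subunit, rose by 3.47 in epithelia beside 0.51 in fibroblasts (adjusted p = 0.37). Cd74 and RT1-Bb, which belong to the class II antigen presentation of macrophages, dendritic and B cells, lost their calls without either of the first and second SCC epithelia samples, among others. A second RT1-Bb probe set gave 0.31 and was not called. Ddx60, an antiviral helicase, was among the 6 with the largest differences of its class, but its levels of 0.93, 1.57 and 0.88 in normal epithelia were near the lower limit of the table. Its layer difference of 4.68 ± 0.97 (adjusted p = 0.0124) shrank to 1.29 with an adjusted p of 0.304 when signals under 32 were raised to 32. Ifi44, which is induced by interferon alpha and beta, rose by 1.98 ± 0.38 in epithelia beside -0.81 ± 0.38 in fibroblasts (adjusted p = 0.148), a layer difference of 2.80 ± 0.54 (adjusted p = 0.00909).

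The promoters of Ddx60 and Ifi44 are shown with the interferon-stimulated response element searched, TTTC, any 2 bases and then TTTC on either strand, in capitals. That motif was in 13 of the 26 interferon list genes with a window (50%) and in 1140 of all 33469 windows (3.41%), and no match in the promoters printed overlapped the NF-kB motif. Ddx60 lies on the minus strand at chr16:33208840-33209089, with matches on the opposite strand at -73 to -64 and -39 to -30. Ifi44 lies on the minus strand at chr2:243303841-243304090, with its match at -26 to -17.
Ddx60: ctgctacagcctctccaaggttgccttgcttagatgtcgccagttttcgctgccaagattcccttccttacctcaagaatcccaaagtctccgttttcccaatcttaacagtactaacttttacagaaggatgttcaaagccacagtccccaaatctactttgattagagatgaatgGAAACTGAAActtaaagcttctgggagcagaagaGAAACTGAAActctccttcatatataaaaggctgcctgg
Ifi44: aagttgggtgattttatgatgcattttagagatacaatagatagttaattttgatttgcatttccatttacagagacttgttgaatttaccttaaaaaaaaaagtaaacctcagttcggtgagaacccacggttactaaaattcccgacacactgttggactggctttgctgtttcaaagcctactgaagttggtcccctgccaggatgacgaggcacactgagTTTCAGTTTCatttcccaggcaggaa

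The genes that fell in epithelia only included structural proteins of hair and other hard keratin. Krtap1-1, a keratin-associated protein known from hair, stood at 11.76, 11.05 and 11.82 in normal epithelia, 6.12, 6.26 and 5.56 in SCC epithelia, 5.03, 4.59 and 5.04 in normal fibroblasts and 4.58, 4.69 and 4.44 in SCC fibroblasts. Normal epithelia alone were high, and the layer difference was -5.25 ± 0.34 (adjusted p = 4.28e-05). Krtap1-5 gave -5.10 ± 0.49 (adjusted p = 0.000432), but these genes are close copies whose probes may share transcripts. Krt33b, a hair keratin, had levels of 13.20, 12.85 and 13.10 in normal epithelia and 9.20, 10.16 and 8.67 in SCC epithelia, beside 6.35 to 7.19 in the fibroblast samples. The epithelial groups were apart by a mean of 3.71, and the layer difference was -3.37 ± 0.44 (adjusted p = 0.00148). Dysplasia epithelia lay between, at 8.65 for Krtap1-1 and 11.64 for Krt33b.

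Fmo2, a flavin monooxygenase that oxidises foreign compounds, measured 12.09, 12.26 and 11.96 in normal epithelia, 7.40, 7.92 and 7.18 in SCC epithelia, 7.37, 7.82 and 6.42 in normal fibroblasts and 7.55, 7.52 and 7.72 in SCC fibroblasts. SCC epithelia thus came down to the level of the fibroblast fraction, with a layer difference of -5.0 ± 0.43 (adjusted p = 0.000243), and the other Fmo2 probe sets gave -4.78 and -3.83. Ivl, the cornified envelope protein involucrin, stood at 8.62, 8.53 and 8.85 in normal epithelia and at 5.88, 4.83 and 5.84 in SCC epithelia. Its fibroblast levels were 3.16 to 3.94 with overlapping groups, and its layer difference was -3.20 ± 0.40 (adjusted p = 0.00116). Rapgef4, an exchange factor switched on by cAMP, fell by 3.18 ± 0.25 in epithelia beside 0.36 ± 0.25 in fibroblasts. Pank2, a kinase of coenzyme A synthesis, fell by 3.47 in epithelia on 1 probe set, while its 3 other probe sets gave layer differences of -0.01, 0.49 and 0.45, none called.

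**Figure D3:**
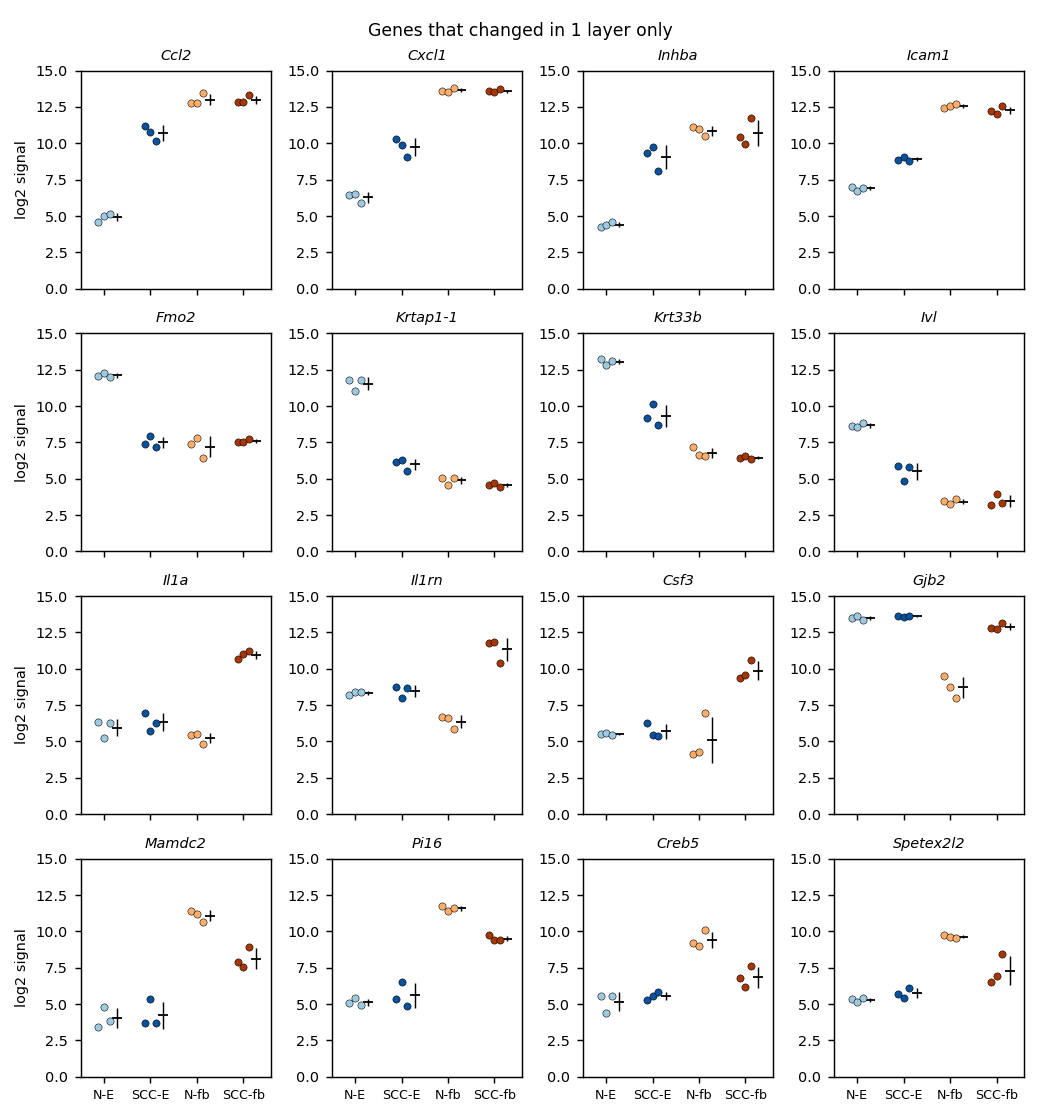
Log2 signal (vertical axis) of 16 genes that changed in 1 layer only, in the 3 samples of normal epithelia (N-E), SCC epithelia (SCC-E), normal fibroblasts (N-fb) and SCC fibroblasts (SCC-fb); the bar beside each group is its mean with SD. Ccl2 differs between the epithelial groups alone, and Il1a and Gjb2 between the fibroblast groups alone. A brighter probe set of Inhba, not drawn, was not called.

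The genes that rose in fibroblasts only included ones of the suprabasal epithelium. Gjb2 encodes connexin 26, a gap junction protein of keratinocytes, and stood at 13.46, 13.61 and 13.37 in normal epithelia, 13.65, 13.57 and 13.63 in SCC epithelia, 9.46, 8.72 and 8.0 in normal fibroblasts and 12.83, 12.72 and 13.13 in SCC fibroblasts. The epithelia were at the same high level at both stages, and SCC fibroblasts came close to it (layer difference -4.03 ± 0.40, adjusted p = 0.000454). Gjb6, connexin 30, had levels of 5.89, 5.22 and 3.67 in normal fibroblasts and 9.18, 9.01 and 8.95 in SCC fibroblasts, while its epithelial samples all lay between 12.43 and 12.96. The layer difference was -4.04 ± 0.60 (adjusted p = 0.00285). Sprr1b, a small proline-rich protein of the cornified envelope, rose by 4.46 ± 0.51 in fibroblasts beside 0.50 ± 0.51 in epithelia, and Fgfbp1, a carrier that releases fibroblast growth factors, by 4.18 ± 0.51 beside 0.47 ± 0.51. Rbp2, a cellular retinol binding protein, rose in both, by 5.76 ± 0.30 in fibroblasts and 1.01 ± 0.30 in epithelia (layer difference -4.75 ± 0.43, adjusted p = 0.000305). Beside these, none of the 16 epithelial markers was called in limma (1 had an unadjusted p under 0.05), where 14.7% of all genes were. All 16 had layer differences below 0, as did 7907 of all 14217 genes. The median own change of the 16 markers in the fibroblast fraction was 0.63. The part of that epithelial signal in these rises was not tested.

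Lists that hold genes of this kind leaned the same way. Of 26 measured epithelial differentiation genes, 7 were called below 0 and none above (Krt1, Krt78, Ivl, Sprr1b, Tgm1, Gsdma and Anxa9), beside 8.78% of all genes called below 0, 3 of them with each array left out, and the median layer difference was -1.28, or -1.92 aligned on the spike-ins. The called genes reached that sign in different ways, since Krt1, a keratin of suprabasal cells, rose by 3.09 in epithelia and 5.06 in fibroblasts, whereas Gsdma, a gasdermin of differentiated keratinocytes, fell by 1.90 in epithelia beside -0.02 in fibroblasts. In the EGF receptor family list, 3 of 12 were called below 0 (Tgfa, Ereg and Nrg1) and Hbegf above 0, a share of 33.3% beside 14.7% of all genes. Tgfa, a ligand that keratinocytes use on themselves, rose by 2.39 in fibroblasts and changed by -0.35 in epithelia (adjusted p = 0.000243 for the layer difference of -2.74), while Hbegf, another ligand of that receptor, rose by 2.14 in epithelia and changed by 0.25 in fibroblasts. Nrg1, a ligand of related receptors, had a layer difference of -2.76 (adjusted p = 0.00236) on its brightest probe set. Of its 7 other probe sets, 3 were also called below 0 (-3.49, -1.30 and -1.0), the last of them as a fall in epithelia only, and 4 were not called (-1.49, -0.64, -0.61 and -0.18).

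Of 17 acute phase and antimicrobial genes, 6 were called below 0 (Hp, Serpina3n, Slpi, Camp, Reg3g and Csf3), all 6 with each array left out, and 2 above 0 (Lyz2 and Il6), neither of which held with each array left out, beside 8.78% and 5.89% of all genes. The median was -1.58, or -2.21 aligned on the spike-ins, with own changes of 0.10 in epithelia and 1.91 in fibroblasts. Serpina3n, a serine protease inhibitor of the acute phase, had the largest of these layer differences, -4.64 (adjusted p = 0.00667), from 3.49 in fibroblasts beside -1.15 in epithelia (adjusted p = 0.176). Slpi, a secreted inhibitor of leukocyte proteases, rose by 2.53 in fibroblasts beside -0.05 in epithelia. None of the 15 sterol and fatty acid synthesis genes had a layer difference above 0, and 4 were called below it (Sqle, Idi1, Fdps and Fdft1), beside 8.78% of all genes, with a median of -0.76, or -1.39 aligned on the spike-ins. Sqle and Idi1 were called with each array left out, while Fdps and Fdft1 lost their calls without any 1 of 8 and 7 arrays. A second Fdft1 probe set gave -0.35 and was not called. Sqle, the squalene epoxidase, rose by 1.16 in fibroblasts and changed by -0.40 in epithelia (layer difference -1.56, adjusted p = 0.00473).

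Genes that fell in fibroblasts only were mostly low in the epithelia at both stages. Pi16, a peptidase inhibitor that marks fibroblasts of the adventitia, stood at 5.05, 5.39 and 4.95 in normal epithelia, 5.37, 6.53 and 4.90 in SCC epithelia, 11.74, 11.41 and 11.63 in normal fibroblasts and 9.72, 9.38 and 9.42 in SCC fibroblasts. The epithelial groups overlapped and the fibroblast groups did not (layer difference 2.56 ± 0.46, adjusted p = 0.00695), although a second Pi16 probe set gave -0.13 (adjusted p = 0.875). Mamdc2, a secreted proteoglycan, had levels of 11.41, 11.18 and 10.67 in normal and 7.92, 7.52 and 8.94 in SCC fibroblasts, beside 3.43 to 5.32 in the epithelia. The fall in fibroblasts was 2.96 ± 0.51 on the log2 scale and the layer difference 3.18 ± 0.72 (adjusted p = 0.0179). Creb5, a transcription factor of the CREB family, gave 2.98 ± 0.59 (adjusted p = 0.0101), and 2 of its 4 other probe sets, with 2.10 and 2.02, were also called. Mmp16, a membrane-bound metalloprotease, gave 2.81 ± 0.56 (adjusted p = 0.0104). Spetex2l2 gave 2.81 ± 0.54 (adjusted p = 0.00934), but it belongs to a family of near-identical copies, so its probes are uncertain. Ugt2b gave 3.24 ± 0.50 from levels of 1.16 to 4.81, and the difference was 0.00 once signals under 32 were raised to 32.

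Among the genes that moved in opposite ways, those higher in SCC epithelia and lower in SCC fibroblasts are taken first. Aspn, asporin, is a small matrix proteoglycan, and stood at 3.62, 5.28 and 4.06 in normal epithelia, 5.64, 7.11 and 6.02 in SCC epithelia, 11.66, 11.66 and 12.22 in normal fibroblasts and 9.31, 8.87 and 10.12 in SCC fibroblasts. Every SCC sample lay above the normal ones in epithelia and below them in fibroblasts, with a layer difference of 4.35 ± 0.68 (adjusted p = 0.00368). A second Aspn probe set gave 5.68 (adjusted p = 0.0224) with an uncalled fibroblast change of -1.89. Sgcb, a sarcoglycan that links the cytoskeleton to the matrix, measured 4.59, 4.87 and 4.61 in normal epithelia, 7.09, 8.15 and 7.14 in SCC epithelia, 10.34, 10.08 and 10.36 in normal fibroblasts and 8.92, 8.51 and 9.95 in SCC fibroblasts. Neither layer overlapped between stages, and the layer difference was 3.91 ± 0.50 (adjusted p = 0.00129), with 2.46 and 1.15, both called, on the other probe sets. The fibroblast changes of -0.92 and -0.49 on these were not called, so the opposite movement again rested on 1 of 3 probe sets. Adam23, a non-catalytic member of the ADAM family, rose by 1.70 ± 0.23 in epithelia and fell by 1.77 on the log2 scale in fibroblasts (layer difference 3.47 ± 0.32, adjusted p = 0.000324). Its other probe sets gave 1.73 (adjusted p = 0.00212) and 0.69 (adjusted p = 0.0533), and on neither was the epithelial change called (0.27 and -0.08), so the opposite movement rested on 1 of 3 probe sets.

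Ap1s2, a subunit of the clathrin adaptor, gave a layer difference of 3.63 ± 0.58 (adjusted p = 0.00408). On its other probe sets the fibroblast fall was not called, with layer differences of 3.42 (called) and 0.79 (adjusted p = 0.0626) and fibroblast changes of -1.18 and -0.05. Dsel, an enzyme of dermatan sulfate synthesis, gave 3.15 ± 0.46 (adjusted p = 0.00244). Fam111a, a protease that restricts viral replication, had the largest layer difference of this class, 5.91 ± 1.17 (adjusted p = 0.0102), but its levels of 6.77, 8.21 and 6.67 in normal epithelia overlapped the 10.16, 10.97 and 8.02 of SCC epithelia. Its fibroblast levels were 11.31, 11.27 and 12.48 in normal and 9.19, 9.02 and 6.63 in SCC samples, which did not overlap. In the second SCC epithelia sample, where fibroblast markers were highest, Aspn, Sgcb, Ap1s2, Dsel and Fam111a were also at their highest epithelial level. From TGF-beta signalling, the ligand Tgfb3 and the latent binding protein Ltbp1 belonged here. Tgfb3 stood at 5.76, 6.07 and 5.56 in normal epithelia, 7.26, 7.63 and 7.53 in SCC epithelia, 9.51, 9.22 and 9.13 in normal fibroblasts and 8.36, 8.37 and 9.02 in SCC fibroblasts. Neither layer overlapped, and the layer difference was 2.38 ± 0.29 (adjusted p = 0.00114), beside 2.06 ± 0.36 (adjusted p = 0.00619) for Ltbp1.

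In the reverse direction, Mxd1 had the smallest p of the genes named. It encodes a partner of MAX that opposes MYC and rises as keratinocytes differentiate, and stood at 11.52, 11.54 and 11.52 in normal epithelia, 10.16, 10.06 and 9.40 in SCC epithelia, 8.75, 8.49 and 8.55 in normal fibroblasts and 11.78, 11.69 and 11.40 in SCC fibroblasts. The order of the layers was thus turned round between the stages, with a layer difference of -4.68 ± 0.27 (adjusted p = 3.4e-05). Sts, steroid sulfatase, measured 10.27, 10.03 and 10.41 in normal epithelia, 7.82, 7.75 and 6.48 in SCC epithelia, 8.34, 8.12 and 8.14 in normal fibroblasts and 10.49, 10.58 and 9.56 in SCC fibroblasts. Here too the layer with the higher level changed from epithelia to fibroblasts, and the layer difference was -4.90 ± 0.49 (adjusted p = 0.000465). Tbc1d10c, a regulator of Ras and calcineurin in lymphocytes, had levels of 8.18, 8.44 and 8.08 in normal and 5.99, 6.30 and 5.63 in SCC epithelia, and of 5.28, 4.99 and 5.32 in normal and 7.02, 7.24 and 6.94 in SCC fibroblasts. Its layer difference was -4.13 ± 0.25 (adjusted p = 4.28e-05), and neither layer overlapped.

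Krt71, a keratin of the hair root sheath, fell by 1.39 in epithelia and rose by 2.84 in fibroblasts (layer difference -4.23 ± 0.56, adjusted p = 0.00159). Rab11fip1, an effector of the recycling endosome, gave -4.08 ± 0.65 (adjusted p = 0.00403), and its second probe set -1.70 (adjusted p = 0.0681), with neither own change called. Chac1, which breaks down glutathione and is induced in the stress response of ATF4, fell by 3.06 ± 0.25 in epithelia and rose by 0.77 ± 0.25 in fibroblasts (layer difference -3.83 ± 0.35, adjusted p = 0.000305). Egln3, an oxygen-sensing prolyl hydroxylase, gave -2.59 ± 0.36 (adjusted p = 0.00209). Idi1, an enzyme of isoprenoid synthesis, gave -2.06 ± 0.23 (adjusted p = 0.000656), and -3.12 on a second probe set. Hmox1, haem oxygenase, fell by 1.08 in epithelia and rose by 0.71 in fibroblasts (layer difference -1.79 ± 0.29, adjusted p = 0.00413), and Fosl2, a partner of JUN in AP-1, fell by 0.59 and rose by 1.11 (-1.70 ± 0.21, adjusted p = 0.0012).

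**Figure D4:**
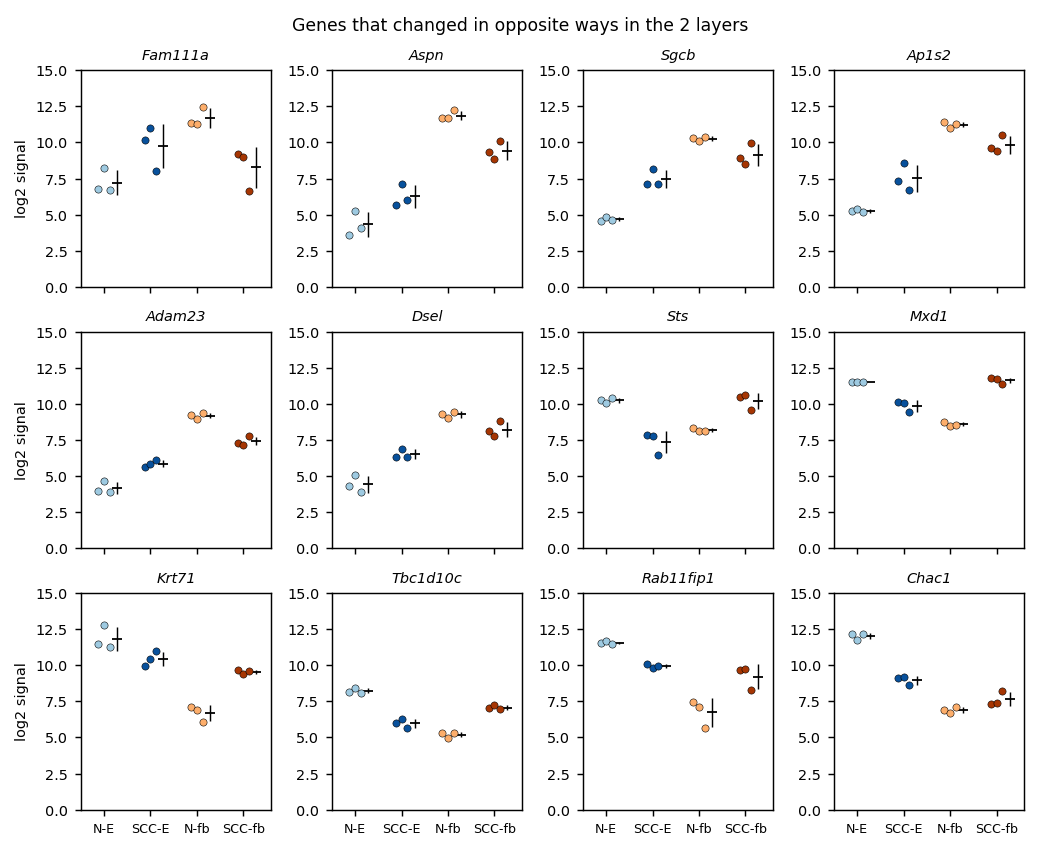
Log2 signal (vertical axis) of 12 genes that changed in opposite ways, in the 3 samples of normal epithelia (N-E), SCC epithelia (SCC-E), normal fibroblasts (N-fb) and SCC fibroblasts (SCC-fb); the bar beside each group is its mean with SD. In the first 6 genes the layers draw together from a high fibroblast level, and Mxd1 and Sts end higher in fibroblasts than in epithelia.

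Collagens and other stromal matrix genes all leaned to the epithelial side, by a larger rise or a smaller fall there than in fibroblasts. Of 33 measured, all 33 had a layer difference above 0 and 5 were called (Col5a2, Col12a1, Postn, Tnc and Loxl2), which is 15.2% beside 5.89% of all genes called above 0, and 1 of them, Col5a2, was called with each array left out. The median was 2.80, or 2.17 aligned on the spike-ins, and fell to 1.58 without the second SCC epithelia sample, the one highest in fibroblast markers. Without the third sample of each group 16 were called. Col5a2, a fibrillar collagen chain, rose by 3.10 in epithelia beside -0.61 in fibroblasts (layer difference 3.72, adjusted p = 0.00743). A second Col5a2 probe set, with 3.76, was also called, but other probe sets of Col12a1 (-0.47 and 0.73) and Loxl2 (1.90) were not. Postn, periostin, had the largest difference of the list, 6.19 (adjusted p = 0.0206), and lost its call without the third normal epithelia or the second SCC fibroblast sample. Of the 16 fibroblast markers all 16 were likewise above 0, as were 6310 of all 14217 genes. Their median was 3.16 (1.91 without the second SCC epithelia sample). Only Thy1 was called (4.54 ± 0.99, adjusted p = 0.0153, with 0.98 and no call on a second probe set). That is 6.25% of these markers, near the 5.89% of all genes called above 0. Of the 17 macrophage markers all were above 0, and Aif1, Tyrobp and Lyz2 were called, beside 5.89% of all genes called above 0 and 14.7% in either direction. Of these 3 calls, 1 held with each array left out. That of Aif1 held in 3 of the 12 fits with 1 array left out, and that of Lyz2 in 5. A second Aif1 probe set had the opposite sign, -0.41 (adjusted p = 0.154).

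TGF-beta, activin and BMP genes gave 5 of 28 called above 0 (Tgfb2, Tgfb3, Smad3, Ltbp1 and Ccn2) and none below, with a median of 0.45 that turned to -0.18 when aligned on the spike-ins and was 0.17 without the second SCC epithelia sample. Tgfb2 had probe sets of opposite sign, 2.01 (adjusted p = 0.0355) and -1.70 (adjusted p = 0.00276), and the first lost its call without any 1 of 7 arrays. The cadherin and EMT list had 4 of 14 called above 0 (Cdh13, Twist1, Zeb1 and S100a4). The matrix protease list had 3 of 28 above 0 (Mmp3, Mmp14 and Adamts1) and Mmp8, the collagenase of neutrophils, below. Second probe sets of Smad3 (-0.12), Twist1 (0.78) and Mmp14 (0.10) were not called, while the other probe sets of Cdh13 (1.48 and 1.97) were. Adamts1, a matrix protease, rose by 2.27 in epithelia beside -1.05 in fibroblasts (layer difference 3.32, adjusted p = 0.00266). The share called was 17.9% in the TGF-beta list, 28.6% in the cadherin list, and 14.3% in both the matrix protease and basement membrane lists. Beside this, 14.7% of all genes were called in either direction and 5.89% above 0. The matrix protease share lay near the former. All calls of the TGF-beta, cadherin and basement membrane lists were above 0. With each array left out, 2, 2 and 1 of these calls held. Lamb2, Lamc1 and Hspg2 were the 3 of 21 basement membrane genes called, all above 0, where the median of 0.60 became -0.03 aligned on the spike-ins. A second Lamc1 probe set gave 0.16 and was not called.

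Of the proliferation lists, mitosis had no call and DNA replication 5 of 25, beside 14.7% of all genes. None of the 28 mitosis genes had a called layer difference in limma, 2 had an unadjusted p under 0.05, and their median own change was 0.82 in epithelia and 0.67 in fibroblasts. DNA replication genes gave 2 called above 0 (Mcm4 and Dut) and 3 below 0 (Pole, Cdc45 and Hells) of 25, a share of 20.0%, with 2 of the 5 called with each array left out. The other probe sets of Cdc45 (-0.70, -0.36 and -0.67) were not called, while that of Dut (1.23) was. Of the glycolysis and hypoxia list 4 of 28 were called above 0 (Hk2, Eno2, P4ha1 and P4ha2) and Egln3 below. A second P4ha2 probe set gave -0.54 and was not called. Of NRF2 and xenobiotic metabolism genes, 4 of 34 were called above and 3 below. These lists' shares of 17.9% and 20.6% lie near the 14.7% of all genes. Gsta1, a glutathione transferase, had the largest of the latter above 0, 4.04 (adjusted p = 0.00129), from a rise of 3.35 in epithelia beside -0.69 in fibroblasts. Calls in the remaining lists numbered 6 or fewer each. They went both ways, aside from the circadian, Wnt, Notch and squamous transcription factor lists, which had 1 called gene each. The S100 list had the highest share of these, 6 of 14 (42.9%), beside 14.7% of all genes. Of these 6, 3 lay above 0 and 3 below, and 5 held with each array left out. Next came the immediate early list with 5 of 21 (23.8%) and the FGF list with 3 of 14 (21.4%).

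**Figure D5:**
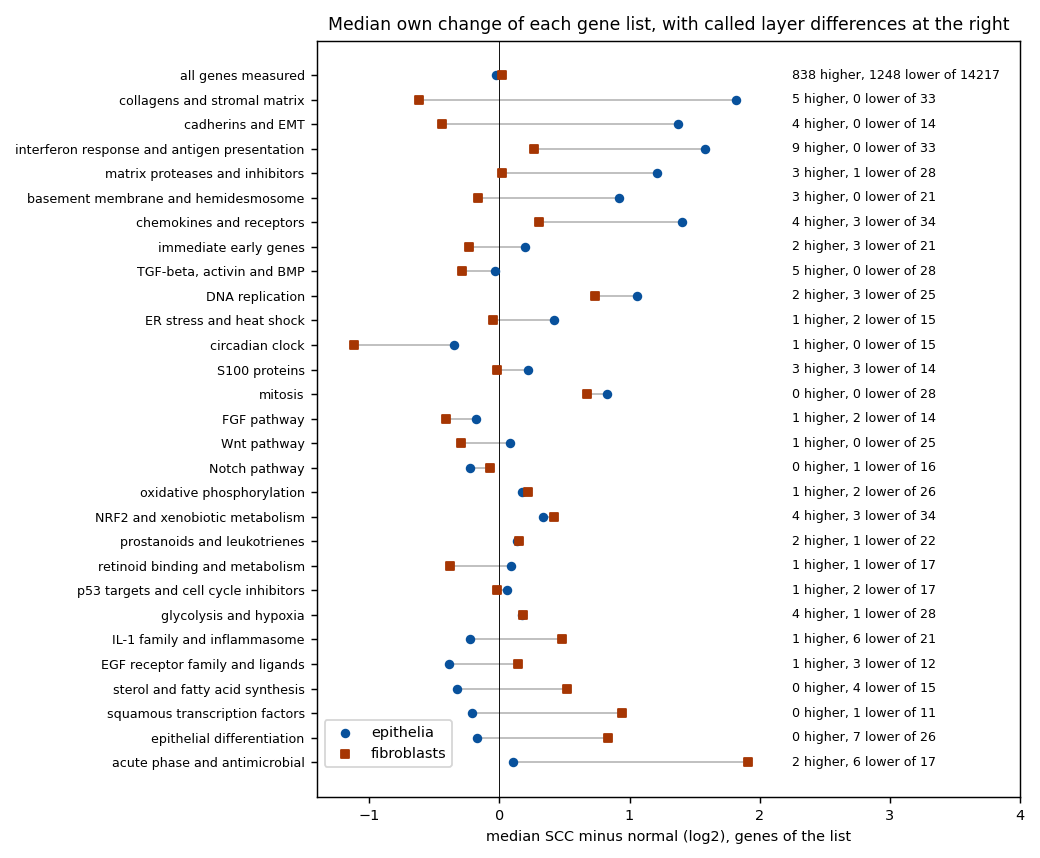
Median change from normal to SCC (horizontal axis, log2) of the measured genes of 28 lists and of all 14217 genes, in epithelia (circles) and fibroblasts (squares), with the number of called layer differences in each direction at the right. The widest separation is that of collagens and stromal matrix, with medians of 1.82 and -0.61.

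Of the genes that the study itself named, several that changed greatly in SCC did not differ between the layers by this test. Mmp13, a collagenase, rose by 5.27 in epithelia and 4.26 in fibroblasts, with a layer difference of 1.01 ± 0.86 (adjusted p = 0.458), and Mmp9, a gelatinase, by 2.92 and 2.14 (0.79 ± 0.61, adjusted p = 0.413). Ptgs2, which encodes COX2, rose by 3.62 in epithelia and 1.42 in fibroblasts, a called layer difference of 2.20 ± 0.48 (adjusted p = 0.0153). S100a8, the partner of S100a9, gave 1.37 ± 0.49 (adjusted p = 0.0874), and Ccl20, an attractant of dendritic cells, 1.64 ± 0.53 (adjusted p = 0.0647). Tgfb1 gave 0.39 ± 0.26 (adjusted p = 0.346), which became -0.24 aligned on the spike-ins. Vim, vimentin, had a layer difference of 3.32 ± 1.04 (adjusted p = 0.0596), close to the threshold. Glrx, glutaredoxin, rose by 1.36 in fibroblasts only (layer difference -1.63 ± 0.27, adjusted p = 0.00502).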

How the data were processed

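Biotin-labelled RNA was hybridised to Affymetrix Rat Genome 230 2.0 arrays, 1 per sample. Per the labels, the authors summarised probe sets with RMA in Affymetrix Expression Console (versions not stated), and the deposited values are linear intensities. Their lowest value is 1 and their highest 21626, no detection calls were used here, and depth has no meaning for arrays. Their log2 was fitted with limma 3.58.1 in R 4.3.3 over 12 arrays as 4 group means (lmFit, eBayes), with Benjamini-Hochberg adjustment over 31042 probe sets, after 57 controls were left out. Of these, 20826 name 1 gene, 436 several and 9780 none, and genes with several probe sets are given by the brightest. The script was tested on simulated data.

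Named genes were up to 6 per class with the largest layer difference among those called with each array left out (given by the probe set ranked), up to 3 per gene list, others of the lists where a count names its called genes, and genes the study names. Members and the 28 lists were chosen with earlier results of these data known. Replicate numbers were not used to pair the samples in the main fit. Promoters were matched by symbol. Alternatives were other scalings, a floor of 32, filters, array weights, blocks and arrays left out.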

Additional observations from a re-analysis of the deposited data

Results flagged for a closer look

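The change from normal tissue to SCC differed between the layers, by the limma test of that difference itself, for 3992 probe sets, and 350 of them changed in opposite ways. Of the latter, the genes with the largest layer differences that were called with each array left out are listed for that reason. Above 0 were Fam111a at 5.91, Aspn at 4.35, Sgcb at 3.91, Ap1s2 at 3.63, Adam23 at 3.47 and Dsel at 3.15, all on the log2 scale. Below 0 were Sts at -4.90, Mxd1 at -4.68, Krt71 at -4.23, Tbc1d10c at -4.13, Rab11fip1 at -4.08 and Chac1 at -3.83. Groups of 3 are too small for a formal test of single samples. The samples that stood apart by their markers are described with the results.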

How the results depend on the processing

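The 3992 calls, with 1813 changed in epithelia only, 1349 in fibroblasts only and 350 in opposite ways, depended on single arrays. With 1 array left out, calls ranged from 1947 (without SCC fibroblast sample 1) to 6204 (without SCC fibroblast sample 3), with 1989 without sample 2. They were 2437, 2654 and 2296 without normal epithelia sample 1, 2 and 3, and 2636 without SCC epithelia sample 2. Epithelia-only changes then ranged from 926 to 2052, fibroblast-only from 540 to 2782 and opposite from 133 to 714. Leaving out sample 3 of every group, chosen after seeing the data, gave 2205 fibroblast-only and 729 opposite changes. Aligned on the spike-ins, 747 changed in epithelia only and 2913 in fibroblasts only. Array weights, whose fit did not converge, gave 11730 calls, 4068, 6223 and 1811. With 1 probe set per gene, fewer were tested, and the numbers were 2388, 1128, 797 and 217. Opposite changes were 760 at 2-fold with unadjusted p and 984 with unadjusted p for the own changes. The methods' t-test gave 3458 at their threshold of 2-fold and unadjusted p, and 2960 after Benjamini-Hochberg adjustment. The cause of these shifts was not tested.

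With the replicate number as a replicate block, 3149 were called, and with stage and number together 1494, where own changes could not be estimated. Whether the numbers pair the samples is not stated. Same-numbered samples correlated between -0.31 and 0.12 across layers and between -0.09 and 0.23 across stages. These correlations cannot show whether the pools held the same rats.

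Of 172 named genes' values, 28 lost their call aligned on the spike-ins and 31 with signals under 32 raised to 32, 46 in the methods' t-test, 63 with stage and number as a block, and 51 and 53 without SCC fibroblast sample 1 or 2. No named gene with a called layer difference changed sign under the alternatives run. Of values not called, Cd40 (-0.17), Dbp (-0.35) and Tgfb1 (-0.24) turned on the spike-in alignment and Mmp13 (-0.38) on the floor. With 1 array left out, Cdh1 ranged from -1.0 to 0.19, Dbp from -0.02 to 0.78 and Krt5 from -0.52 to 0.06.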

Other observations

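Mast cell markers averaged 7.35 in normal and 9.08 in SCC fibroblasts on the log2 scale, and 5.11 in normal and 6.36 in SCC epithelia. None of the 10 had a called layer difference in limma (1 had an unadjusted p under 0.05), beside 14.7% of all genes. So few markers cannot show that the layers did not differ. Of 23 skeletal muscle markers, Myh7, Mb and Atp2a1 were called below 0 and none above, a share under the 14.7% of all genes called. Of these calls only that of Mb held with each array left out. A second Myh7 probe set gave -0.30 (adjusted p = 0.448 in limma). The median layer difference of the list was 0.27, with 15 markers above 0 and 8 below.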
